A study of Mus musculus with 17 samples.

Results

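Grem1 and 9 other genes of bone morphogenetic protein (BMP) signaling were followed in distant, non-ablated MC38 tumors of mice. The 10 genes were 10 rows of the 21931 in the authors' table, chosen by symbol: the antagonist Grem1, the ligands Bmp2 and Bmp4, the receptors Bmpr1a and Bmpr2, the inhibitory SMADs Smad6 and Smad7, and the target genes Id1, Id2 and Id3. Grem1 was chosen because it ranked first among the genes lower in the cryoablation group, so its difference between the groups is given as a description, without a test. The other 9 genes were named for the pathway, with earlier results of these data known. Of the 10 genes, 9 passed the filter on low counts and entered the test across genes. Bmp4 did not pass it and is given by its counts.

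MC38, a mouse colon cancer line that the labels also call mesenchymal, was implanted subcutaneously on both sides of C57BL/6J mice (genotype WT, aged 6 to 8 weeks). In the cryoablation group, 1 of the tumors was frozen 7 days after implantation, in 2 freezing cycles of 20 s per the labels, whereas the methods describe longer freezing. The tumor on the other side was taken 5 days after cryoablation, and the libraries are of 8 such tumors and of 9 tumors of the control group. The text of the study gives the group sizes the other way round, and the labels were followed here. Both groups carried the same cells in the same strain, and a library is of a whole tumor, with RNA of cancer cells, stroma, vessels and immune cells.

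BMPs are secreted ligands of the TGF-beta superfamily. They bind a type I receptor such as BMPR1A together with a type II receptor such as BMPR2, and the active complex phosphorylates SMAD proteins that enter the nucleus and switch on target genes, of which the Id genes and the inhibitory SMADs are the best known. Gremlin 1, the product of Grem1, is a secreted protein that binds BMP2 and BMP4 and keeps them from their receptors, and in the intestine and in colorectal tumors it is known as a product of stromal cells.

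The promoters of 3 of the genes are shown, as the window from -250 to 50 around the RefSeq start site in GRCm38.p6: Grem1, which ranked first, Id2, whose level varied with that of Grem1 and Bmp2, and Id3, a target gene that did not pass the test for either relation. Capitals mark GGCGCC, a GC-rich motif known for binding SMADs of the BMP branch, whose letters read the same on both strands. The windows are chr2:113758599-113758898 (minus strand) for Grem1, chr12:25096043-25096342 (minus strand) for Id2 and chr4:136143572-136143871 (plus strand) for Id3.
Grem1: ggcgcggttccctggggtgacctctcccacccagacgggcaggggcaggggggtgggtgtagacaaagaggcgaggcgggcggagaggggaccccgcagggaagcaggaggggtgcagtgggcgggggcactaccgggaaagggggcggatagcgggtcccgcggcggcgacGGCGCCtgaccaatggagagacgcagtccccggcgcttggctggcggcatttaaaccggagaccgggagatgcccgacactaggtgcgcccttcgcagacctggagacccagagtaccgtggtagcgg
Id2: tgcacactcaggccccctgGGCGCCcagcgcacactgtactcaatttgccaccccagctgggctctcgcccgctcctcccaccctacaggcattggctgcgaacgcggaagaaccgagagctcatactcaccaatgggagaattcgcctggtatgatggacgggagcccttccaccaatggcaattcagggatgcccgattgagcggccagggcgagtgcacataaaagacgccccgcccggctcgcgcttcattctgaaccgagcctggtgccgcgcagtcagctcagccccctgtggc
Id3: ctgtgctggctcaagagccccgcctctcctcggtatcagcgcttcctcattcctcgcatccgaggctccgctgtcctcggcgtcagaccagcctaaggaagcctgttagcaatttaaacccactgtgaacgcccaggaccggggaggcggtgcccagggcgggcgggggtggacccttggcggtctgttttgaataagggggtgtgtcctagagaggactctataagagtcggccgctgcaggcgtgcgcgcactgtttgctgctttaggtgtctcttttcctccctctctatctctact

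Of the 10 genes, 7 had a promoter in the RefSeq table, and Bmp2, Id1 and Smad7 were not matched. GGCGCC stood in 4 of these 7 windows, at -78 in Grem1, -231 in Id2, -198 in Bmpr1a and -105 in Bmpr2, where positions count from the start site. Among all 32841 promoters of that table, 11.9% held it. The shorter SMAD motif CAGAC, searched on both strands, stood in 2 of the 7, Grem1 at -219 and 18 and Id3 at -167 and -68, and in 49.6% of all promoters. The motifs do not overlap in these windows. A match of letters describes the window and does not show a binding site.

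Total counts ranged from 13524899 to 17898672 per tumor, and 3 counts, the limit that a count of 0 allows, came to between 0.168 and 0.222 CPM (counts of the gene per 1000000 counts of the library) before normalization. This limit covers counting error only. Levels are given as CPM after TMM normalization, which corrects for differences in composition between libraries. In edgeR's quasi-likelihood test across 13005 genes, 0 genes had an adjusted p under 0.05 (smallest adjusted p 0.728), 639 had an unadjusted p under 0.05, and the median log2 fold change was -0.00878. Cryoablation replicates 2, 4 and 5 stood apart from all other tumors. In them, the longer a gene, the lower its level against the mean of all tumors, by 0.301, 0.268 and 0.391 on the log2 scale per doubling of gene length. The same slope, called the length trend here, lay between -0.168 and 0.195 in the control group and between -0.014 and 0.231 in the other cryoablation tumors. Of the 5 epithelial markers checked, Epcam, Cdh1 and Krt19 were detected in every tumor, with at least 8, 55 and 6 counts. Krt8 had no count in at least 1 tumor of each group, and Krt18 had none in at least 1 cryoablation tumor.

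**Figure D1:**
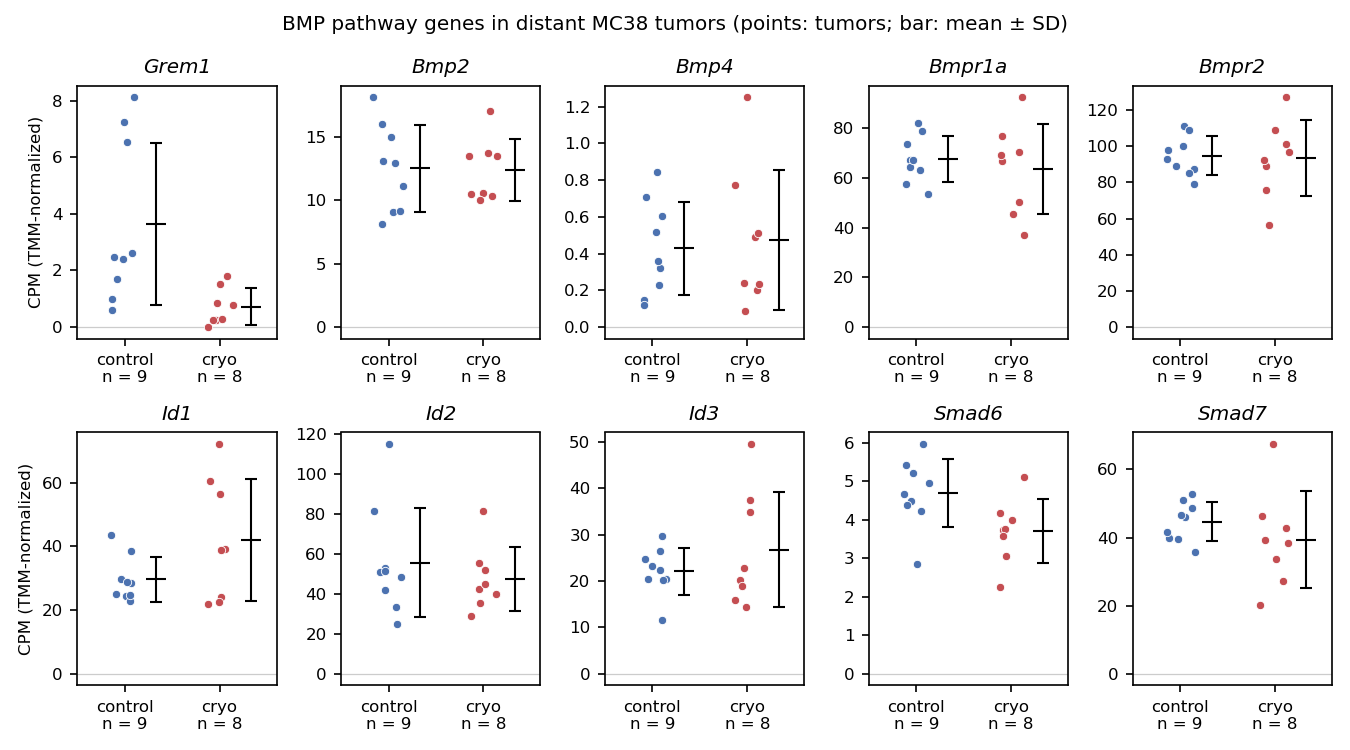
TMM-normalized CPM of the 10 genes in each tumor (vertical axis, from 0, scaled per gene) by group, with 9 control tumors in blue and 8 cryoablation tumors in red. The bars give the mean ± SD. For Grem1 all 8 cryoablation tumors lie under the control median, from 0 to 1.82 CPM, and 4 of them under the lowest control tumor at 0.597 CPM, whereas no other gene has all of them on 1 side of that median.

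Grem1 (ENSMUSG00000074934, chr2:113746164-113758646 on the minus strand in GENCODE M21, GRCm38) had few reads in every tumor. The 9 control tumors had 8, 29, 160, 101, 13, 40, 132, 47 and 44 counts in order of replicate number, which is 0.597 to 8.11 CPM with a median of 2.48. The 8 cryoablation tumors had 0, 3, 28, 11, 3, 32, 13 and 4 counts, from 0 to 1.82 CPM with a median of 0.536. Control replicates 3, 4 and 7 were the highest of all tumors, and 3 cryoablation tumors had at most 3 counts. In cryoablation replicate 1, with 0 counts, a level of up to 0.203 CPM cannot be told from 0.

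Grem1 averaged 3.63 ± 2.86 CPM (SD, n = 9 control tumors) and 0.722 ± 0.659 CPM (SD, n = 8 cryoablation tumors). The fitted ratio of cryoablation over control was 0.206, a log2 fold change of -2.28 (SE 0.61). The 8 cryoablation tumors were all under the control median, 4 of them under the lowest control tumor, and 6 of 9 control tumors lay above the highest cryoablation tumor. The groups overlapped nonetheless, through control replicates 1, 2 and 5 at 0.597, 1.68 and 0.996 CPM. Every cryoablation tumor was below the control median in 103 of the 13005 genes tested (0.792%), and in 0 genes (0%) did the groups not overlap at all. In bulk tumor RNA, fewer cells of a type and less RNA per cell cannot be told apart.

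Grem1 was 1 of 64 genes (0.492% of those tested) past the threshold the study used, which asks for a log2 fold change beyond 1 in either direction and an unadjusted p under 0.05. The number of lower genes past it, 18 with all tumors, was 4 without control replicate 4 and 74 without cryoablation replicate 3. Among the 18, each with a mean of at least 10 counts, Grem1 came first by the test statistic, ahead of Hs6st2 at a log2 fold change of -1.42 (SE 0.41) and Itga11 at -1.23 (SE 0.37). By size of the change alone, Col6a5 was lower, at -3.71 (SE 1.21), and it was the only such gene among those tested. These ranks chose Grem1 and are no evidence beyond the values themselves.

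The level of Grem1 also varied widely within each group. The SD of its log2 CPM was 1.22 among control and 1.32 among cryoablation tumors, against a median within-group SD of 0.35 over all genes tested, and 117 of the 13005 genes had a larger one. With offsets for the trend of each tumor over the length and GC content of genes, the log2 fold change of Grem1 was -2.26 (SE 0.59). Without cryoablation replicates 2, 4 and 5 it was -2.04 (SE 0.73), and with any 1 tumor left out it lay between -2.63 and -2.05. Under limma's voom with a weight for each tumor it was -3.77 (SE 0.854).

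Marker lists of the stroma and of other cell types were read beside Grem1. Over all genes tested, 3.74% were higher and 1.17% lower in the cryoablation group at an unadjusted p under 0.05. All 12 fibroblast markers passed the filter, 3 with a log2 fold change above 0 and 9 below, with a median of -0.07 and 0 with an unadjusted p under 0.05. No marker of the list was at 0 in all tumors. They summed to between 7971 and 14193 CPM in control tumors and to between 5513 and 10555 CPM in cryoablation tumors. Among the largest differences were Col1a1 at -0.58 (SE 0.30) and Postn at -0.33 (SE 0.16), neither with an unadjusted p under 0.05. The 11 endothelial markers had a median of -0.13 and summed to 120 to 263 CPM in control tumors and to 143 to 200 CPM in cryoablation tumors. Egfl7 was the 1 endothelial marker with an unadjusted p under 0.05, and it was higher in the cryoablation group. Of the 6 mural cell markers, 5 were tested, and Rgs5, a marker of pericytes, was lower by a log2 fold change of -0.51 (SE 0.18, edgeR unadjusted p 0.00996, adjusted p 0.728). The mural cell markers summed to 83.7 to 161 CPM in control tumors and to 74.1 to 149 CPM in cryoablation tumors. Of the erythroid markers, 4 of 5 were tested and all 4 were higher at an unadjusted p under 0.05 (median log2 fold change 1.49), with sums of 6.16 to 74.6 CPM in control and 25.1 to 175 CPM in cryoablation tumors. With the length and GC offsets all 4 kept an unadjusted p under 0.05, and the log2 fold change of Hba-a1 went from 1.745 to 1.209. Of 5 adipocyte markers, 4 were tested and had log2 fold changes above 0 (median 0.96), 2 of them at an unadjusted p under 0.05, Fabp4 and Cfd. With the length and GC offsets the edgeR unadjusted p was 0.0211 for Fabp4 and 0.106 for Cfd. Of 5 neutrophil markers, 4 were tested, 3 with a log2 fold change above 0 and 1 below, Csf3r at -0.51 (SE 0.419). S100a8 and S100a9 were higher at 1.34 (SE 0.528) and 1.61 (SE 0.648), each at an unadjusted p under 0.05. With the length and GC offsets their edgeR unadjusted p was 0.0696 and 0.0547. Of the 6 macrophage markers, 2 had a log2 fold change above 0 and 4 below (median -0.115). Adgre1 was the 1 with an unadjusted p under 0.05, lower at -0.69 (SE 0.291), and C1qa was at 0.52 (SE 0.353). The 5 epithelial markers were all tested, 4 with a log2 fold change above 0 and 1 below (median 1.65), and 0 with an unadjusted p under 0.05. They ranged from -0.35 for Cdh1 (SE 0.27) to 2.01 for Krt18 (SE 1.05). Of 6 epidermis markers, 3 were tested, all 3 with a log2 fold change above 0, and Krt10 was at 0.73 (SE 0.257, edgeR unadjusted p 0.0106). Of all the markers in these lists, 0 passed the adjusted p. The part of these cells in the difference of Grem1 was not tested.

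Neither ligand differed detectably between the groups. Bmp2 (chr2:133552159-133562885, plus strand), a ligand that gremlin 1 binds, ranged from 8.13 to 18.1 CPM in the control group (median 12.9) and from 10 to 17 CPM in the cryoablation group (median 12). The highest tumors were control replicate 4 and cryoablation replicate 4, and the groups overlapped over nearly their whole range. The means were 12.5 ± 3.44 CPM (SD, n = 9) and 12.4 ± 2.47 CPM (SD, n = 8). Its log2 fold change was -0.01 (SE 0.167, 95% interval -0.36 to 0.34, edgeR adjusted p 0.982, exact permutation p 0.94), so that a change of Bmp2 as large as that of Grem1 lies outside the interval.

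Bmp4 (chr14:46383520-46390669, minus strand), the other ligand, had 2 to 16 counts in the control tumors and 1 to 21 counts in the cryoablation tumors, with a median of 6 in both groups. Of the 17 tumors, 6 had at most 3 counts, 3 in each group. The means were 0.428 ± 0.255 CPM (SD, n = 9) and 0.474 ± 0.384 CPM (SD, n = 8), with the highest level, 1.25 CPM, in cryoablation replicate 8. A difference was not detectable at this depth (exact permutation test, two-sided, p = 0.953).

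The receptors had similar means in the groups but a wider spread in the cryoablation group. Bmpr1a (chr14:34410734-34503341, minus strand), a type I receptor, ranged from 53.7 to 82.1 CPM in the control group (median 67.3) and from 37 to 92.4 CPM in the cryoablation group (median 68). Cryoablation replicates 5, 4 and 2, at 37, 45.7 and 50.3 CPM, were the 3 lowest of all tumors, and cryoablation replicate 7 was the highest. In the fit across genes, the log2 fold change was -0.09 (SE 0.152, 95% interval -0.41 to 0.23, edgeR adjusted p 0.831, exact permutation p 0.43).

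Bmpr2 (chr1:59763400-59879014, plus strand), the type II receptor, ranged from 79.4 to 111 CPM in the control group (median 93) and from 56.7 to 127 CPM in the cryoablation group (median 94.5). Its lowest and highest tumors were again cryoablation replicates 5 and 7. For Bmpr2 the log2 fold change was -0.02 (SE 0.126, 95% interval -0.28 to 0.25, edgeR adjusted p 0.961, exact permutation p 0.749). Without cryoablation replicates 2, 4 and 5, the log2 fold changes turned to 0.14 for Bmpr1a (SE 0.105) and 0.14 for Bmpr2 (SE 0.0944).

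Smad6 (chr9:63953076-64022059, minus strand), an inhibitory SMAD that mainly restrains BMP receptors, had the smallest exact permutation p of the 9 genes other than Grem1. It ranged from 2.85 to 5.97 CPM in the control group (median 4.68) and from 2.24 to 5.12 CPM in the cryoablation group (median 3.75). In the cryoablation group, 7 of 8 tumors lay below the control median, and 3 of 9 control tumors lay above the highest cryoablation tumor. The means were 4.69 ± 0.884 CPM (SD, n = 9) and 3.7 ± 0.838 CPM (SD, n = 8). The log2 fold change was -0.33 (SE 0.167), with an edgeR unadjusted p of 0.0606 and an adjusted p of 0.728. The exact permutation test of its mean log2 CPM gave p = 0.0425, unadjusted for the other genes tested in the same way. That p was above 0.05 without cryoablation replicates 2, 4 and 5 (exact permutation p = 0.319) and in 12 of the 17 fits with 1 tumor left out, control tumors included, where it reached 0.0919 without cryoablation replicate 2.

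Smad7 (chr18:75367529-75395935, plus strand), which restrains both the TGF-beta and the BMP branch, ranged from 35.8 to 52.7 CPM in the control group (median 45.9) and from 20.1 to 67.5 CPM in the cryoablation group (median 38.8). Cryoablation replicates 5, 2 and 4 were the lowest, at 20.1, 27.1 and 33.7 CPM, and cryoablation replicate 7 the highest. The log2 fold change was -0.18 (SE 0.174, 95% interval -0.55 to 0.18, edgeR adjusted p 0.763, exact permutation p 0.203), and it was 0.06 (SE 0.130) without replicates 2, 4 and 5.

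The Id genes, which encode inhibitors of DNA binding and are direct targets of BMP signaling, did not move as a group. Id1 (chr2:152736251-152737410, plus strand) ranged from 22.7 to 43.7 CPM in the control group (median 28.6) and from 22 to 72.2 CPM in the cryoablation group (median 39.1). Cryoablation replicates 5, 4 and 2 were above every control tumor, at 72.2, 60.5 and 56.6 CPM, and 3 of the 8 cryoablation tumors were below the control median. The means were 29.6 ± 7.05 CPM (SD, n = 9) and 42 ± 19.2 CPM (SD, n = 8). Its log2 fold change was 0.50 (SE 0.234), with an edgeR unadjusted p of 0.0446, an adjusted p of 0.728 and an exact permutation p of 0.134.

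Of the 8 genes other than Grem1 in the edgeR test, Id1 was the 1 with an unadjusted p under 0.05 there, which 4.91% of all genes tested had (1.17% lower and 3.74% higher in the cryoablation group). This rested on 3 tumors. Without cryoablation replicates 2, 4 and 5 the log2 fold change of Id1 was -0.02 (SE 0.190). With the length and GC offsets, over all tumors, it was 0.16 (SE 0.0813, edgeR unadjusted p 0.0602).

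Id2 (chr12:25093799-25097140, minus strand) ranged from 24.9 to 115 CPM in the control group (median 50.7) and from 28.6 to 81.2 CPM in the cryoablation group (median 43.6). Control replicates 4 and 3 and cryoablation replicate 4 were the highest, at 115, 81.4 and 81.2 CPM. The log2 fold change was -0.23 (SE 0.26, 95% interval -0.77 to 0.32, edgeR adjusted p 0.782, exact permutation p 0.58).

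Id3 (chr4:136143497-136145755, plus strand) ranged from 11.5 to 29.7 CPM in the control group (median 22.3) and from 14.3 to 49.6 CPM in the cryoablation group (median 21.6). As for Id1, cryoablation replicates 4, 2 and 5 were above every control tumor, at 49.6, 37.4 and 35 CPM. The log2 fold change was 0.27 (SE 0.235, 95% interval -0.22 to 0.77, edgeR adjusted p 0.747, exact permutation p 0.471), and -0.27 (SE 0.180) without these tumors.

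**Figure D2:**
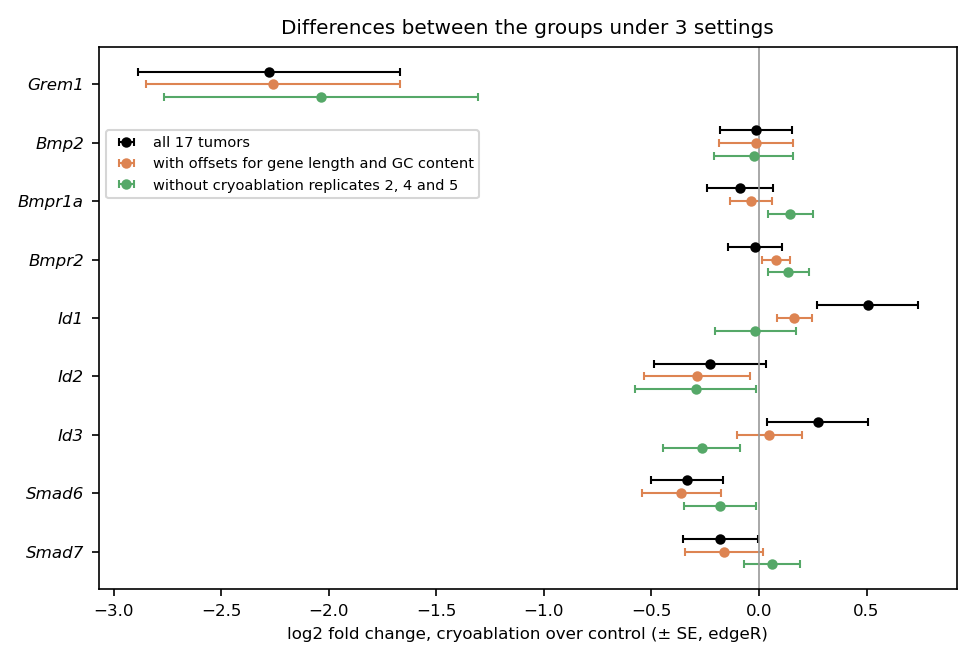
Log2 fold change of cryoablation over control (horizontal axis, ± SE from edgeR) of the 9 genes tested, with all 17 tumors (black), with offsets for length and GC content (orange) and without cryoablation replicates 2, 4 and 5 (green). Grem1 lies between -2.28 and -2.04 in all 3 settings, whereas Id1 goes from 0.50 to -0.02 and Id3 from 0.27 to -0.27.

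In length-corrected units (FPKM, which scales reads by gene length and library size, median over the 17 tumors), the target genes were the most abundant and Grem1 and Bmp4 the least. The medians were 26.3 FPKM for Id1, 19.2 for Id2, 12.4 for Id3, 11 for Bmpr1a, 9.49 for Smad7, 5.41 for Bmpr2, 3.81 for Bmp2, 1.4 for Smad6, 0.401 for Grem1 and 0.166 for Bmp4. Neighbors in this order were compared within tumors by a permutation test over all sign patterns of log2(FPKM + 0.1), adjusted over the 9 pairs. Id3 and Bmpr1a did not differ beyond their spread (adjusted p = 0.108, Id3 higher in 11 of 17 tumors). The other pairs without Grem1 passed the test, Id1 over Id2 by the smallest margin (adjusted p = 0.0257, 12 of 17 tumors). Id1 over Id2 no longer passed it without control replicate 1 (adjusted p = 0.0511), without cryoablation replicate 2 (adjusted p = 0.0503) or without cryoablation replicates 2, 4 and 5 (adjusted p = 0.135). It did not pass in the control or the cryoablation tumors alone (adjusted p = 0.359 and 0.0586), and neither did Bmpr1a over Smad7 (adjusted p = 0.0904 and 0.0563). Id2 over Id3 did not pass the test in the cryoablation tumors alone (adjusted p = 0.141). Id3 over Bmpr1a passed it without control replicate 6 (adjusted p = 0.0471). For the pairs with Grem1, whose low level in the cryoablation tumors chose it, no test is given: it was below Smad6 in 14 of 17 tumors and above Bmp4 in 14 of 17.

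By the group medians, the order of Grem1 and Bmp4 was not the same in both groups. Within tumors, Grem1 lay below Bmp4 in cryoablation replicates 1, 5 and 8 and above it in all others. In control tumors the medians were 0.637 FPKM for Grem1 and 0.166 FPKM for Bmp4, against 0.121 and 0.175 FPKM in cryoablation tumors. Since Grem1 was chosen for its low level in the cryoablation tumors, that turn is part of the same contrast. Bmp2 lay above Grem1 by its median in both groups, at 3.85 and 3.49 FPKM.

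The length trend of a tumor went with the level of 5 of the 10 genes, after the group means were removed and with p adjusted over the 10. The trend was fitted on all genes tested, so a relation with it is partly built in for very short and very long genes. The share of all genes that go with it is not given, so the 5 describe these genes only. Id1, with 1160 bases the shortest of the genes, was lower the higher the trend (r = -0.974, rho = -0.909, adjusted permutation p 5e-05 and 0.000125). Id3, of 1791 bases, followed in the same direction (r = -0.861, rho = -0.902, adjusted permutation p 0.00022 and 0.0001). Bmpr2, the longest at 17983 bases, went the other way (r = 0.883, rho = 0.917, adjusted permutation p 5e-05 and 0.0001). Bmpr1a (r = 0.893, rho = 0.890) and Smad7 (r = 0.836, rho = 0.779) did so too, with adjusted permutation p of at most 0.000125 for r and 0.00208 for rho. Without the 2 tumors farthest out, cryoablation replicates 2 and 5, r was -0.961 for Id1, -0.848 for Id3, 0.818 for Bmpr2, 0.827 for Bmpr1a and 0.694 for Smad7. Among the control tumors alone r was -0.945, -0.671, 0.873, 0.639 and 0.584 in the same order.

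For the other 5 genes the test was not passed, among them Grem1, whose 4148 bases are close to the 4521 of Smad7. Grem1 had r = 0.446 (rho = 0.431, adjusted permutation p 0.149 and 0.184), Smad6 0.379, Bmp4 0.21, Id2 0.143 and Bmp2 0.108 (adjusted permutation p between 0.237 and 0.652 for these 4). What made the length trend differ between tumors was not tested.

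**Figure D3:**
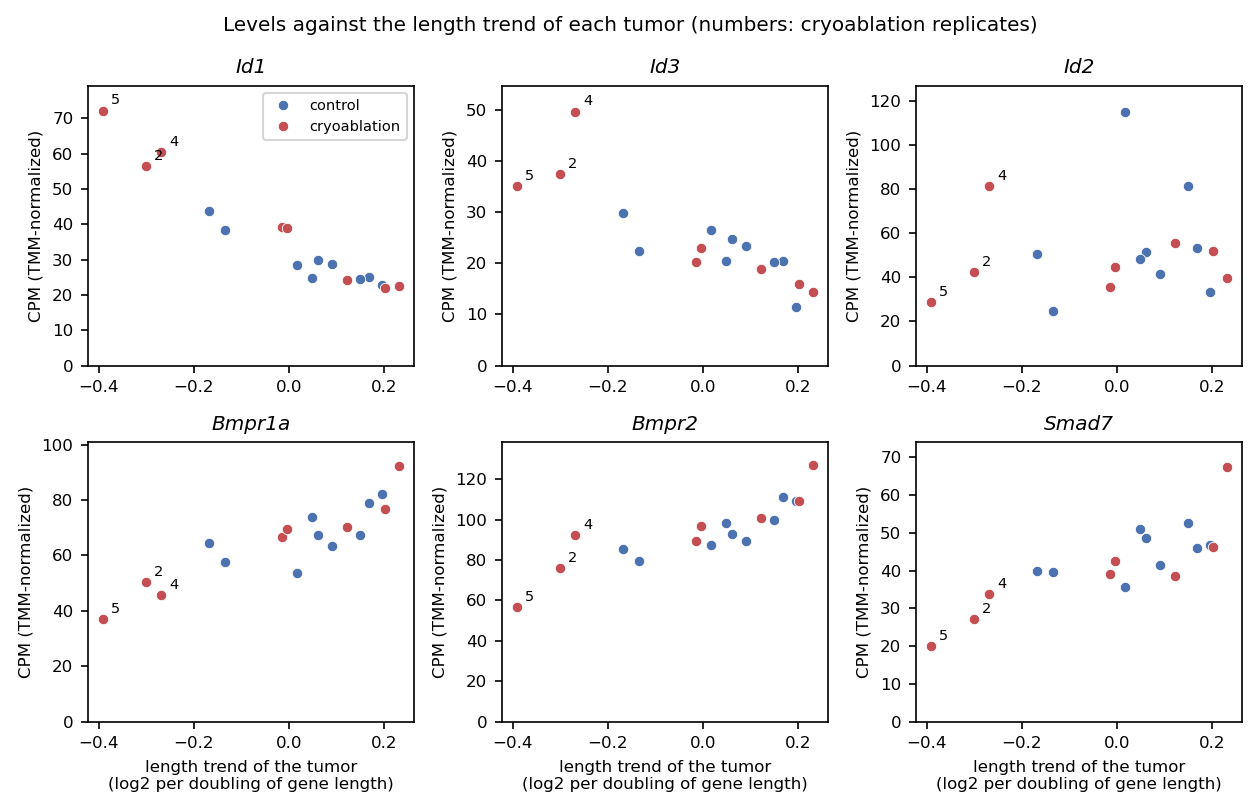
TMM-normalized CPM of 6 of the genes (vertical axes, from 0) against the length trend of each tumor (horizontal axes, log2 change per doubling of gene length), with control tumors in blue and cryoablation tumors in red. The numbers mark cryoablation replicates 2, 4 and 5, which sit at -0.301, -0.268 and -0.391. Id1 and Id3 fall and Bmpr1a, Bmpr2 and Smad7 rise along the axis in both groups, and Id2 does neither.

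Across tumors, 65 relations were tested after the group means were removed: the 45 pairs of the 10 genes and each gene with the mean log2 CPM of the fibroblast markers and of the endothelial markers. With p from 100000 permutations within groups, adjusted over the 65, 12 relations passed an adjusted p of 0.05, and 10 of them joined 2 of the 5 genes that went with the length trend. The strongest were positive, Bmpr2 with Smad7 (r = 0.916, rho = 0.830, adjusted permutation p 0.000433 and 0.00455), Bmpr1a with Smad7 (r = 0.904, rho = 0.805, adjusted permutation p 0.000325 and 0.0052) and Bmpr1a with Bmpr2 (r = 0.902, rho = 0.877, adjusted permutation p 0.000325 and 0.0013). Without the 2 tumors farthest from the median these were 0.776, 0.790 and 0.780. Id1 with Bmpr1a gave r = -0.866 (rho = -0.823, adjusted permutation p 0.0013 and 0.00542) and Id1 with Id3 gave r = 0.858 (rho = 0.853, adjusted permutation p 0.00187 and 0.0052). The weakest, Id3 with Bmpr2 and with Smad7 (r = -0.681 and -0.69, adjusted permutation p 0.041 each), were lost in 10 and 9 of the 17 cases with 1 tumor left out. Without cryoablation replicates 2, 4 and 5, 3 of these 10 relations were lost, Id1 with Bmpr1a (r = -0.624, adjusted permutation p 0.11), Id1 with Smad7 (r = -0.551, adjusted permutation p 0.184) and Id3 with Smad7 (r = -0.52, adjusted permutation p 0.147).

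None of these 10 relations kept an adjusted p under 0.05 once the trend over gene length and GC content was removed from each tumor, an analysis chosen after the data were seen. Bmpr1a with Bmpr2 then gave r = 0.0967 (adjusted permutation p 0.809), Bmpr2 with Smad7 r = -0.11 (adjusted permutation p 0.803) and Id1 with Id3 r = 0.356 (adjusted permutation p 0.451). Bmpr1a with Smad7 and with Id3 kept larger values, r = 0.64 and -0.634, each with an adjusted permutation p of 0.0787. Bmpr2 with Id1 turned from -0.85 to 0.586 (adjusted permutation p 0.0924). In these values 2 other relations passed the test, Smad6 with Smad7 (r = 0.808, adjusted permutation p 0.0318, from r = 0.583 and 0.112 before) and Bmpr1a with the endothelial markers (r = -0.689, adjusted permutation p 0.0318, from r = -0.333 and 0.267). By rho, the adjusted permutation p was 0.0509 for the former and 0.00422 for the latter.

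The 2 remaining relations involved Id2 and held in both analyses. Tumors with more Bmp2 had more Id2 (r = 0.841, rho = 0.779, permutation p 8e-05 and 0.00056, adjusted p 0.000975 and 0.0052). Control replicates 4 and 3 were high in both genes, at 18.1 and 16 CPM of Bmp2, and so was cryoablation replicate 4, at 17 CPM. The correlation was 0.881 in the control group (exact permutation p 0.000719, adjusted p 0.0468). In the cryoablation group it was 0.745 (exact permutation p 0.0271, adjusted p 0.16), with rho = 0.595 (exact permutation p 0.132). It was 0.788 without control replicates 1 and 6, the tumors farthest from the median of Bmp2, and 0.826 with the length and GC trend removed (adjusted permutation p 0.00325).

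Tumors with more Grem1 also had more Id2 within their group (r = 0.663, rho = 0.660, permutation p 0.00434 and 0.00649, adjusted p 0.0282 and 0.0352). Neither group passed the adjusted test alone, with r = 0.734 in the control group (exact permutation p 0.0226, adjusted p 0.213, rho = 0.617 with exact permutation p 0.0857) and 0.592 in the cryoablation group (exact permutation p 0.12, adjusted p 0.458). It was 0.57 without control replicate 1 and cryoablation replicate 1 and 0.696 with the trend removed (adjusted permutation p 0.0374 for r, 0.058 for rho). This relation was less firm than that of Bmp2. The adjusted permutation p was 0.0905 without control replicate 1, 0.0615 without control replicate 3 and 0.0599 without control replicate 4. With the group means not removed, Grem1 with Id2 gave r = 0.582 (adjusted permutation p 0.0612). Grem1 with Bmp2 gave r = 0.53 (rho = 0.496, adjusted permutation p 0.144 and 0.193).

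**Figure D4:**
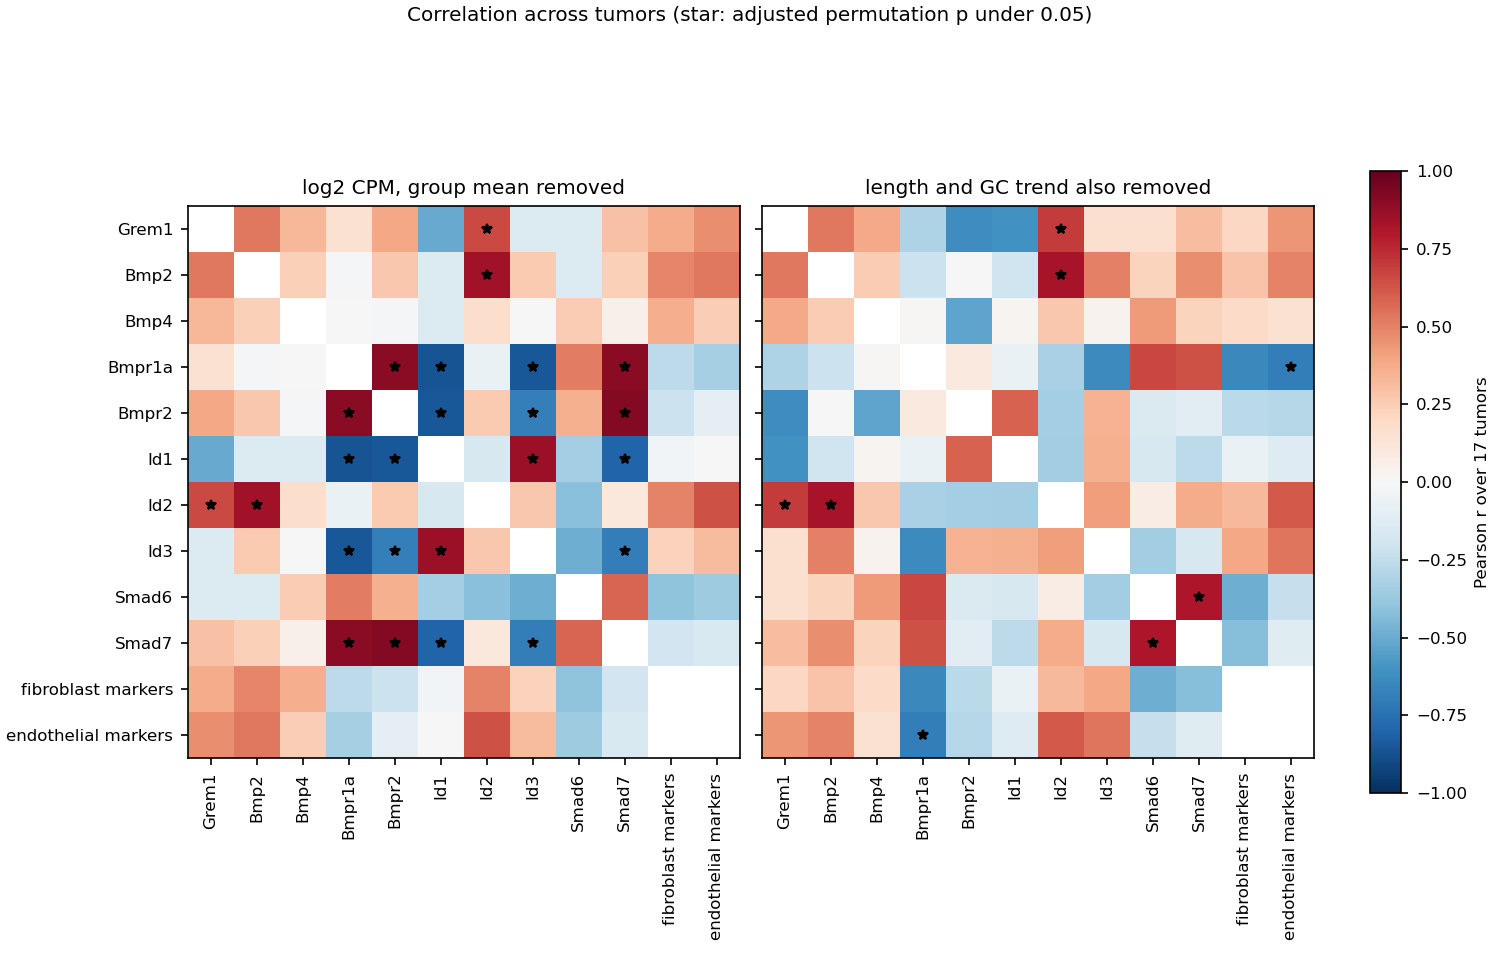
Pearson r over the 17 tumors between the 10 genes and with the means of the fibroblast and endothelial markers, from log2 CPM with the group means removed (left) and with the trend over gene length and GC content also removed (right). Stars mark an adjusted permutation p under 0.05. Of the 12 starred relations on the left, Id2 with Bmp2 and Id2 with Grem1 are also starred on the right, where 4 relations are starred, each drawn on both sides of the diagonal.

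**Figure D5:**
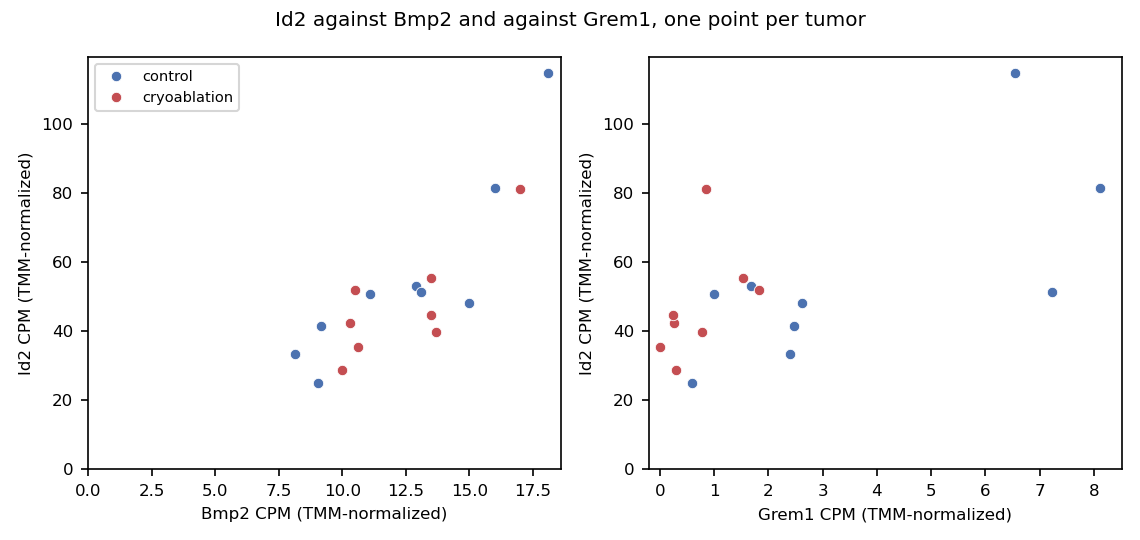
TMM-normalized CPM of Id2 (vertical axes, from 0) against Bmp2 (left) and Grem1 (right), one point per tumor, with control tumors in blue and cryoablation tumors in red. Id2 tends to be higher where Bmp2 is higher, with r of log2 CPM at 0.881 for control tumors (exact permutation test, adjusted p 0.0468). For cryoablation tumors alone r was 0.745, which did not pass that test (adjusted p 0.16). Against Grem1 the cryoablation tumors all lie at or below 1.82 CPM.

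Grem1 and the fibroblast markers gave r = 0.369 over the 17 tumors (rho = 0.270, adjusted permutation p 0.342 and 0.51). It was 0.713 in the control group (exact permutation p 0.0302, adjusted p 0.213) and -0.313 in the cryoablation group (exact permutation p 0.454). Whether these values differ was not tested. With the endothelial markers r was 0.464 (rho = 0.422, adjusted permutation p 0.207 and 0.293). Id2 with the endothelial markers gave r = 0.637 (adjusted permutation p 0.0618).

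Among 12966 tested genes with a mean of at least 10 counts, the genes whose log2 CPM was most like that of Grem1 after the group means were removed were Gk (r = 0.861), Adra2a, Kdm7a and Fbxl5 (each r = 0.849) and Chst15 (r = 0.847). The most opposite were Zfyve21 (r = -0.888), Fkbp3 (r = -0.886) and Nit2 (r = -0.871). These r are the extremes of many and are given without a test. The fold changes of these 8 genes between the groups were far smaller than that of Grem1, from -0.60 for Adra2a (SE 0.373) to 0.07 for Nit2 (SE 0.149). Among the BMP genes listed, Skil stood highest with r = 0.708 (rank 235), followed by Id2 (rank 535).

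The rest of the pathway was read from lists of 61 genes, the 10 genes included, and 40 of the 61 passed the filter. With an unadjusted p under 0.05 there were 1 higher gene, Id1, and 1 lower gene, Grem1, beside 4.91% of all genes tested. The median log2 fold change of the 40 was -0.09, against -0.00878 over all genes tested. Without the 10 genes, 31 of 51 were tested and 0 had an unadjusted p under 0.05 or passed the study's threshold, with log2 fold changes from -0.40 to 0.36.

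Ligands were scarce. Of 14 listed, Bmp2 and Bmp7 passed the filter, and Bmp7 had 3 to 22 counts per tumor (log2 fold change -0.17, SE 0.311). Antagonists were more varied, with 10 of 16 tested, 4 with a log2 fold change above 0 and 6 below. The most abundant was Fstl1, a secreted follistatin-like protein, at 1197 ± 138 CPM in control and 1198 ± 180 CPM in cryoablation tumors (SD, log2 fold change 0.00, SE 0.104, edgeR adjusted p 0.997). Nog, which encodes the antagonist noggin, had at most 7 counts in any tumor, and Cer1 had 0 counts in all 17, which allows between 0.152 and 0.289 CPM per tumor after normalization.

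Of 12 receptors and co-receptors, 10 were tested, 1 with a log2 fold change above 0 and 9 below (median -0.09), and the most abundant per length was Bmpr1a. Among 11 SMADs and their regulators, 10 were tested, with a median of -0.13. The most abundant per length was Ski, a repressor of SMAD complexes, at a median of 33.8 FPKM (log2 fold change -0.08, SE 0.113, edgeR adjusted p 0.806). Of 13 target genes, 11 were tested, 4 with a log2 fold change above 0 and 7 below (median -0.15), from Atoh8 at -0.40 (SE 0.417, edgeR adjusted p 0.771) to Id1. The wider set of 75 genes that the authors' table annotates to BMP signaling had 50 tested, a median of -0.02 and 1 gene with an unadjusted p under 0.05, which was Id1. Its largest fold change was that of Slc39a5, a zinc transporter, at 1.10 (SE 0.539, edgeR unadjusted p 0.0567, adjusted p 0.728), from 3 to 40 counts per tumor.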

How the data were processed

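RNA sequencing of 9 control and 8 cryoablation tumors was analysed. Groups and replicate numbers were taken from the sample labels, and 0 per-sample columns were left without a label. The labels randomize mice to the groups but do not tie each library to a mouse, so p-values measure the spread between these libraries. The authors deposited a count of reads per gene and tumor, not normalized, for 21931 genes. The FPKM values the authors deposited equal the count divided by gene length and total count. The aligner, the counting program and the strandedness are not given in the sources used here, so reads of overlapping or antisense genes may be shared. The submitters' processing notes name the builds GRCm38 and mm10, but the listed gene positions equal those of GENCODE M21 (GRCm38) for only 512 of 21827 shared genes. Positions are therefore those of GENCODE M21 and promoters those of RefSeq GRCm38.p6.

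Counts were tested with edgeR 4.0.16 (R 4.3.3; TMM, filterByExpr by group, quasi-likelihood F test, group as the only term), with Benjamini-Hochberg adjustment over 13005 genes. Standard errors are the log2 fold change over the square root of F, and 95% intervals use the t distribution with the 18.4 degrees of freedom of that test. Log2 CPM used a prior count of 2. Exact permutation tests, two-sided, ran over all 24310 splits into 9 and 8 (smallest p 4.11e-05), and correlations over 100000 permutations within groups (smallest p 1e-05) or exactly within 1 group. FPKM were compared as log2(FPKM + 0.1). The text names all 10 genes, listed pathway genes with an unadjusted p under 0.05 or an absolute log2 fold change over 1, the most abundant of each role, the 5 genes with the highest and the 3 with the lowest r with Grem1, and marker genes where a list is described. The genes followed and all lists were chosen with earlier results of these data known. Alternatives were RLE and upper-quartile normalization, DESeq2 1.42.0, limma 3.58.1 voom with sample weights, no filter, a minimum mean of 10 counts, a replicate block, length and GC offsets (splines of 4 degrees of freedom, GC known for 12981 genes), other prior counts, pseudocounts and centring, and leaving out tumors. The tests were tested on simulated counts. Python 3.11.15, numpy 2.4.6, scipy 1.17.1 and pandas 2.3.3 were used. No pair of tumors had identical counts.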

Additional observations from a re-analysis of the deposited data

Results flagged for a closer look

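In 20 groups of values, the 10 genes in each of the 2 groups, a single tumor far from the rest was looked for by Dixon's test, which chance flags in about 1 of 20 groups. It marked 2. Id3 in control replicate 6 was at 3.54 on the log2 CPM scale (11.5 CPM), whereas the other control tumors lay between 4.34 and 4.90. Smad6 in control replicate 4 was at 1.57 on the log2 CPM scale (2.85 CPM), below the other control tumors at 2.13 to 2.61. Without control replicate 4, the exact permutation p of Smad6 was 0.00342. Leaving out a control tumor picked for its low Smad6 widens the difference by construction, so this p is no support for it.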

How the results depend on the processing

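Grem1 kept its direction under every alternative run, with log2 fold changes from -3.77 with limma's voom and sample weights to -2.04. No gene passed an adjusted p of 0.05 in any of them. At the study's threshold, the 64 genes became 432 without a filter and 33 with the replicate block, and 34 to 165 with 1 tumor left out. The shift was over 1.5 times without control replicate 1 or 5 or cryoablation replicate 2, 3, 5, 6 or 7. The split into higher and lower genes was 46 and 18, but 10 and 69 with voom, 17 and 26 with the offsets, 13 and 20 with the block, 222 and 210 without a filter, and 7 and 50 without cryoablation replicates 2, 4 and 5. With 1 tumor left out, the lower genes numbered 4 without control replicate 4 to 74 without cryoablation replicate 3. The 639 genes with an unadjusted p under 0.05 became 1312 with voom, 992 without a filter, 325 without cryoablation replicates 2, 4 and 5, and 252 to 1388 with 1 tumor left out. The cause of these shifts was not tested. Same-numbered tumors correlated between -0.51 and 0.642 in their deviations, and 2 of 8 correlated best with their own number. The numbers were therefore not used as pairs in the main test, though such a check cannot exclude a pairing. With the replicate block, Grem1 was at -2.46 (SE 0.394), against an SE of 0.611 without it.

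Small differences turned direction. Bmp2 was at 0.0105 with voom, 0.0507 with the replicate block and -0.0902 to 0.0646 with 1 tumor left out, and its difference in mean log2 CPM at -0.058 to 0.0849. That of Bmp4 was at -0.183 to 0.202. Bmpr2 was at 0.00136 with voom, 0.0782 with the offsets and -0.0993 to 0.0609 with 1 tumor left out, and its mean difference at -0.114 to 0.0523. Id3 was at -0.0496 with voom. Without cryoablation replicates 2, 4 and 5, the log2 fold change and the mean difference were 0.144 and 0.153 for Bmpr1a, 0.137 and 0.141 for Bmpr2, -0.0166 and -0.0293 for Id1, -0.267 and -0.238 for Id3, and 0.0598 and 0.0461 for Smad7. With the length and GC trend removed, r turned to -0.11 for Bmpr2 with Smad7, 0.586 for Bmpr2 with Id1 and 0.345 for Bmpr2 with Id3. Grem1 over Bmp4 in FPKM was -0.214 in the cryoablation tumors alone. With 1 tumor left out it stayed above 0, at 0.569 to 0.873.

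Depth limits Grem1 and Bmp4 most, since 3 and 6 of the 17 tumors had at most 3 counts of them.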
